A study of Homo sapiens with 12 samples.

Results

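PFOS, perfluorooctane sulfonate, was compared with its vehicle DMSO at day 8 of cardiac differentiation of H9, an established human embryonic stem cell line. The comparison rests on 4 of the 12 libraries of the series, chosen by their labels: 2 from cells kept in 60 µM PFOS since day 0 and 2 from cells that received DMSO. The other groups used below are F-53B at day 8, also 60 µM since day 0, and DMSO and PFOS at day 12, with 2 libraries each. The series asks about the cardiac developmental toxicity of both compounds, with epicardial fate and WNT signalling named among its questions. All libraries come from 1 cell line and from whole cultures, the labels do not say whether the 2 replicates of a group were separate cultures, and the spread behind each p-value may therefore be technical only. Of 20042 genes listed, 19040 had values and 14080, with 1 FPKM or more in 2 or more of the 12 libraries, were tested.

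In directed cardiac differentiation, WNT activation first turns pluripotent cells into mesendoderm, a passing stage marked by EOMES and MIXL1 that gives rise to mesoderm and endoderm, and WNT inhibition then favours cardiac mesoderm. Cardiac progenitors form cardiomyocytes, endothelial and smooth muscle cells, while the epicardium, a mesothelial sheet marked by WT1 and TBX18, gives rise to fibroblasts and smooth muscle of the heart. TXNIP and its relative ARRDC4 are arrestin-like proteins that lower glucose uptake, and both genes are classical targets of the paired factors MondoA (MLXIP) and MLX, which respond to glucose phosphates.

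Levels are given as FPKM, fragments per kilobase of transcript, scaled to sequencing depth, in the order replicate 1 and replicate 2. Means are FPKM ± SD over 2 libraries, a fold is a ratio of mean FPKM, and a log2 change with its standard error (SE) is the difference of log2(FPKM + 1) in the model of all 12 libraries, so it understates the change of low genes. A gene is said to have risen or fallen where its adjusted p was under 0.05, and to hold under all alternatives where every other setting that tested it called it. The settings given as ending a call are not a full list. Members of gene lists that are named to spell out a count of 5 or fewer were chosen after their values were seen. Counts of list members are to be read beside the shares over all genes tested, of which 3.69% rose and 3.08% fell, 6.77% together. The lists were themselves chosen with earlier results of these data known, so a count above these shares is a description and not a test.

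The labels name the source as cardiac, and cardiomyocyte markers were abundant in all 4 libraries. TNNT2, cardiac troponin T, stood at 1246 and 1473 FPKM with DMSO and at 696 and 1081 with PFOS. NKX2-5, a cardiac transcription factor, stood at 67.8 and 107 with DMSO and at 26.4 and 47.3 with PFOS. Both genes were lower in each PFOS library than in each DMSO library, but neither passed the test (adjusted p = 0.34 and 0.235), nor did MYH6, MYH7 or ACTN2. The summed level of these 5 markers was 2320 and 3044 with DMSO and 1123 and 1761 with PFOS.

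Markers of the other cell types that such a culture can hold moved as well. The summed level of 4 epicardial markers (WT1, TBX18, TCF21, UPK3B) was 112 and 78.0 with DMSO against 215 and 156 with PFOS, and 3 of the 4 rose. That of 4 smooth muscle markers (ACTA2, TAGLN, CNN1, MYH11) was 638 and 823 against 306 and 448, and 2 fell. The 4 endothelial markers (CDH5, PECAM1, KDR, ESAM) summed to 52.0 and 62.0 against 37.6 and 39.7, and 3 fell, while KDR at 36.5 and 38.1 with PFOS made up most of what was left. The 4 fibroblast markers (COL1A1, COL3A1, DCN, LUM) summed to 1412 and 1279 against 1867 and 1468, and 2 rose, DCN and LUM. Most of the sum was COL1A1 and COL3A1, which did not pass the test (adjusted p = 0.4 and 0.189).

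Other lineages were near the floor. The blood set (GATA1, HBE1, PTPRC, RUNX1) summed to between 3.73 and 4.42 FPKM in the 4 libraries, the endoderm and hepatic set (AFP, ALB, FOXA2, SOX17) to between 3.44 and 5.75, and the pluripotent set (POU5F1, NANOG, SOX2) to between 4.1 and 5.98. The neural set (PAX6, SOX1, STMN2, TUBB3) summed to 5.31 and 6.6 with DMSO and to 14.4 and 9.2 with PFOS, nearly all of it TUBB3. RUNX1, ALB, SOX17, PAX6, SOX1, STMN2 and SOX2 were under 1 FPKM in all 4 libraries, and no marker of the 9 sets was at 0 in all of them. In these bulk samples fewer cells of a type and less RNA per cell cannot be told apart, and the part of cell composition in the changes that follow was not tested.

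With PFOS at day 8, 953 genes changed, 6.77% of those tested: 520 rose (3.69%) and 433 fell (3.08%). The changes were mostly modest, with a median size of 0.53 on the log2 scale among the genes that rose and 0.64 among those that fell, and 47 and 73 of them reached a log2 change of 1. PFOS replicate 1 lay farther from DMSO than PFOS replicate 2 for 85.6% of the genes that rose and 82.4% of those that fell. DMSO replicate 1 lay nearer to PFOS than DMSO replicate 2 for 76.3% and 83.8%. The count moved with the libraries in the fit: 170 genes were called without DMSO replicate 2, 181 without PFOS replicate 1, against 785 and 956 without the other library of each group. Of the 953 calls, 141 held when each of the 4 libraries was left out in turn, 76 of them rises and 65 falls. Median-of-ratios scaling gave 410 rises and 533 falls, 43.5% higher against 54.6% with no scaling.

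**Figure D1:**
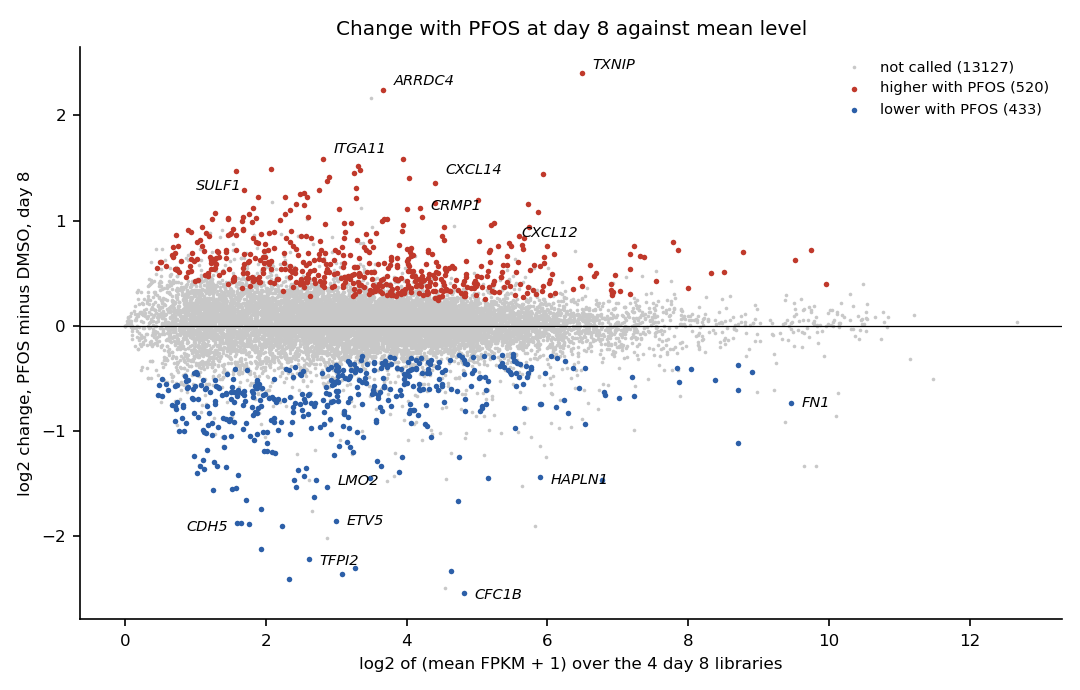
Log2 change with PFOS at day 8 (y axis) against the log2 mean level over the 4 libraries (x axis), 1 point per gene tested. The 520 rises are red and the 433 falls blue; TXNIP and ARRDC4 stand at 2.40 and 2.24 above the other rises, and CFC1B at -2.54 is the largest fall.

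TXNIP and ARRDC4 had the largest log2 changes among the genes that rose. By the ratio of mean FPKM some called genes were above both, among them MT3 (7.35-fold) and DCN (6.07-fold), whose calls ended without 1 library. TXNIP (chromosome 1, 145992435 to 145996600, minus strand) stood at 26.5 and 28.6 FPKM with DMSO and at 168 and 133 with PFOS, a rise of 5.47-fold (27.5 ± 1.53 to 151 ± 24.9; log2 change 2.40, SE 0.12, adjusted p = 3.75e-06). ARRDC4 (chromosome 15, 97960698 to 97973838, plus strand) stood at 3.5 and 3.3 with DMSO and at 22.4 and 17.5 with PFOS, a rise of 5.88-fold (log2 change 2.24, SE 0.12, adjusted p = 4.6e-06). The groups were far apart for both genes, and the highest adjusted p over all alternatives was 0.00135 for each.

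The promoters of the pair are shown because both genes rose together and because such promoters are known to carry E-boxes, short motifs read by MondoA and MLX, next to CCAAT boxes, which NF-Y binds. Each run holds 250 bases before and 50 after a start in RefSeq on GRCh38.p14, 5′ to 3′ in the sense of the gene. Capitals mark CACGTG and CACGAG, an E-box and a variant of it, and CCAAT, each searched on both strands (so that CCAAT also appears as ATTGG), with no overlap among the matches.
TXNIP, chr1:145996530-145996829, minus strand: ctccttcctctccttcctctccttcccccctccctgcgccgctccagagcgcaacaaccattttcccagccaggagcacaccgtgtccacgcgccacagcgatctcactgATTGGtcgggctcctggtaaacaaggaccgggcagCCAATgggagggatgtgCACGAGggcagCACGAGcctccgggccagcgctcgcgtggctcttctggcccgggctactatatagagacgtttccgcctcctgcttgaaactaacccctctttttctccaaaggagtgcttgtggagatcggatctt
ARRDC4, chr15:97960453-97960752, plus strand: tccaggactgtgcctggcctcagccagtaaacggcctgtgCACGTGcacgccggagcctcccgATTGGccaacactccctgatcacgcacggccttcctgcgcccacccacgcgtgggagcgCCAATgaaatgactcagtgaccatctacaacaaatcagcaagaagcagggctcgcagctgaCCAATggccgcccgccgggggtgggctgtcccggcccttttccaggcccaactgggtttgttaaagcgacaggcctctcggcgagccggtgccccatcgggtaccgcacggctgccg
This TXNIP window held CACGAG 2 times and CCAAT 2 times, and the ARRDC4 window held CACGTG 1 time and CCAAT 3 times. RefSeq has 2 starts for TXNIP, and the window of the other, chr1:145995695-145995994, held 0 matches to any of the 3 motifs. Among 35116 promoters of the same length, 0.316% held CACGAG at least 2 times, 7.26% held CACGTG, 10.8% held CCAAT at least 2 times and 3.26% at least 3 times. These matches describe the letters and no binding was measured.

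Of the 10 members of the TXNIP family and its MondoA factors that were tested, KLF10, a repressor that is also a MondoA target, was the only other one to rise. KLF10 stood at 12.2 and 10.7 FPKM with DMSO and at 21.5 and 18.2 with PFOS, 1.73-fold higher (log2 change 0.74, SE 0.10, adjusted p = 0.00199). The arrestin-like relatives ARRDC1, ARRDC2 and ARRDC3 did not pass the test (log2 change -0.41, -0.26 and 0.18), and neither did the factors MLXIP and MLX (0.29 and 0.00) nor the thioredoxins TXN and TXN2 (0.09 and 0.01), to which TXNIP binds. Among 25 genes of glycolysis and glucose transport, limma called 0, and 6 were at an unadjusted p under 0.05, near the share of 23.1% over all genes, with a median log2 change of -0.18 against 0.03 over all genes. The level of the pair in the DMSO libraries was itself much higher at day 12, at 173 and 159 for TXNIP and at 17.6 and 18.7 for ARRDC4, close to their day 8 values with PFOS. At day 12 the PFOS libraries stood at 172 and 191 and at 16.7 and 20.2, and the log2 change was 0.13 and 0.02 (adjusted p = 0.52 and 0.95).

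**Figure D2:**
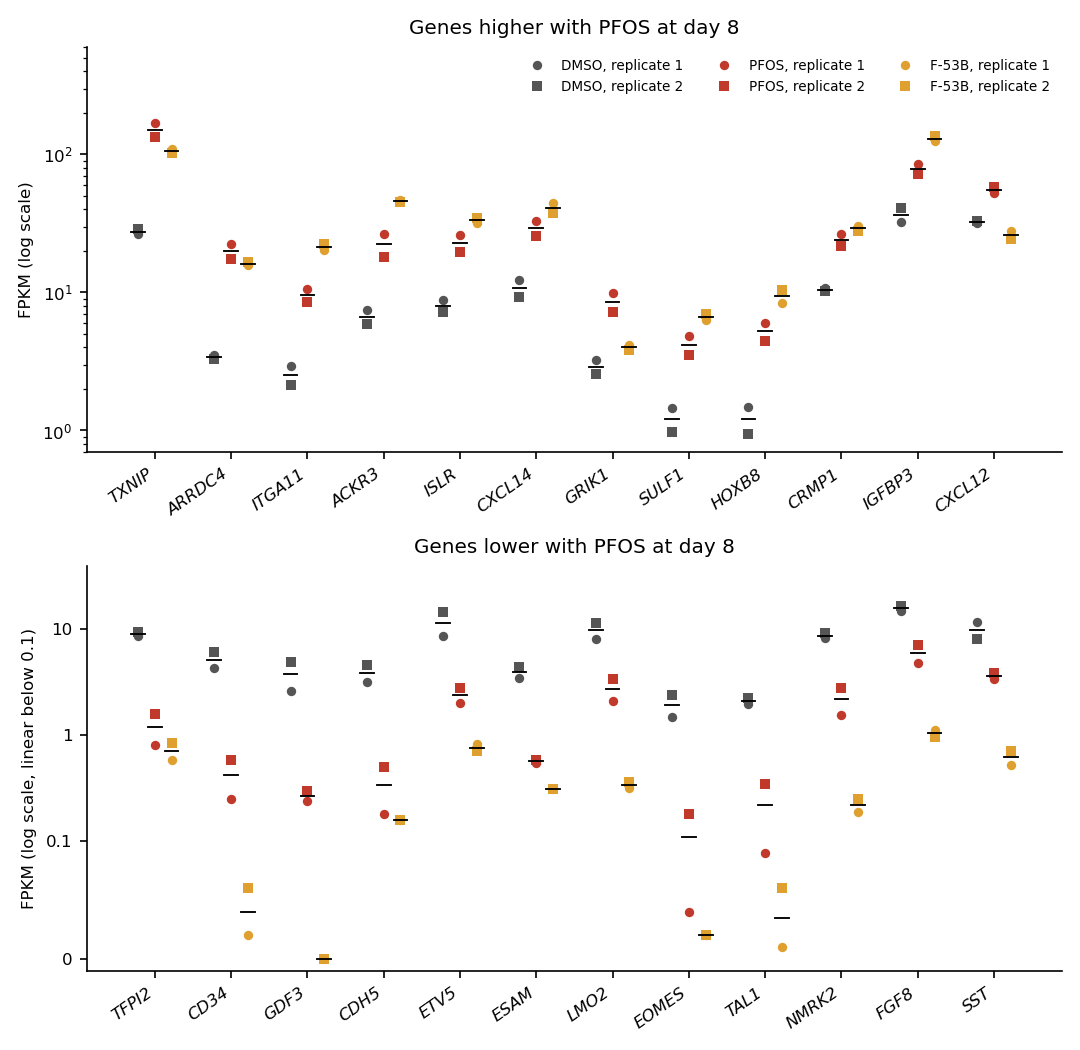
FPKM of 12 genes higher (top) and 12 genes lower (bottom) with PFOS at day 8, on a log axis that is linear below 0.1 in the lower panel, with F-53B beside. Circles are replicate 1, squares replicate 2 and bars the mean. No PFOS point overlaps the DMSO points of its gene, which holds for all 520 rises and 433 falls. It also holds for genes that did not pass the test, among them KDR and TXN, and its share over all genes is not given. In the top panel the F-53B points lie below the PFOS points for TXNIP, ARRDC4, CXCL12 and GRIK1.

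Genes of endothelium and early blood fell. In the endothelial list 9 of 21 members tested fell, with a median log2 change of -0.47, and 4 of 13 members of the blood and hemogenic list fell; the share falling among all genes was 3.08%. CDH5, VE-cadherin of endothelial junctions, stood at 3.2 and 4.63 FPKM with DMSO and at 0.18 and 0.5 with PFOS (log2 change -1.87, SE 0.18, adjusted p = 0.000717). ESAM, another junction protein, stood at 3.49 and 4.47 with DMSO and at 0.55 and 0.59 with PFOS (log2 change -1.66, SE 0.17, adjusted p = 0.000717). The PFOS libraries were at a small fraction of either DMSO library for both. SOX7, a transcription factor of endothelial precursors, fell by 1.05 (2.57 ± 0.25 to 0.72 ± 0.17 FPKM, adjusted p = 0.00125).

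The blood genes that fell are those that blood progenitors share with endothelium. CD34, a surface protein of both, stood at 4.28 and 6.11 FPKM with DMSO and at 0.25 and 0.59 with PFOS (log2 change -2.12, SE 0.22, adjusted p = 0.000717). TAL1 and LMO2, which act in 1 transcription complex of blood and endothelial precursors, fell from 2.12 ± 0.18 to 0.22 ± 0.18 and from 9.85 ± 2.43 to 2.76 ± 0.89 (log2 change -1.36 and -1.53, adjusted p = 0.000848 for each). Markers of formed blood cells did not pass the test: GATA1 was at 1.03 and 0.8 with DMSO and 1.24 and 0.61 with PFOS, and HBE1, embryonic globin, at 1.56 and 1.57 against 1.84 and 2.47. KDR, the VEGF receptor that mesoderm expresses before endothelium does, stood at 43.9 and 50.3 against 36.5 and 38.1 (log2 change -0.33, adjusted p = 0.0713). CDH5, ESAM, SOX7, CD34, TAL1 and LMO2 were called under all alternatives. The mean of TAL1 was under 1 FPKM in every other group used here, so it may have been tested only through day 8 DMSO. The calls on PECAM1 (log2 change -1.02) and ERG (-0.88) ended without DMSO replicate 2 (adjusted p = 0.0602 and 0.0674) or without PFOS replicate 1 (0.0697 and 0.0652), and the count for the endothelial list was then 3 or 4.

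Genes of the mesendoderm stage and of NODAL signalling, the TGF-beta family pathway that drives it, fell. These were 7 of 14 tested, against 3.08% of all genes, with a median log2 change of -0.59. GDF3, a NODAL-like ligand, stood at 2.65 and 4.89 FPKM with DMSO and at 0.24 and 0.3 with PFOS (log2 change -1.87, SE 0.19, adjusted p = 0.000717). EOMES, a T-box factor of mesendoderm, stood at 1.5 and 2.41 with DMSO and at 0.04 and 0.18 with PFOS (log2 change -1.40, SE 0.15, adjusted p = 0.00082). MIXL1, a homeobox factor of the same stage, was at 3.7 and 3.88 with DMSO and 1.86 and 1.8 with PFOS (log2 change -0.76, SE 0.10, adjusted p = 0.00218). All 3 were at low levels even with DMSO. Their groups did not overlap, but that was so for all 433 genes that fell, and for uncalled genes such as KDR and TXN. In every other group used here the means of GDF3 and EOMES were under 1 FPKM. These 2 genes may thus have been tested only through day 8 DMSO, where they were high, which favours falls in the count of 7.

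CFC1 and CFC1B, a pair of near-identical genes for a NODAL co-receptor on chromosome 2 between which reads may be exchanged, stood at 34.0 and 45.4 and at 38.6 and 53.4 FPKM with DMSO. With PFOS they stood at 4.07 and 11.6 and at 3.61 and 12.9 (log2 change -2.33, SE 0.44, and -2.54, SE 0.45; adjusted p = 0.0248 and 0.02). PFOS replicate 2 stood well above PFOS replicate 1 for both. With only the 4 libraries in the fit neither was called (adjusted p = 0.16 and 0.217). Without DMSO replicate 2 the adjusted p was 0.17 and 0.143, and the call on CFC1 also ended without DMSO replicate 1 (0.0588) or PFOS replicate 1 (0.0697). MESP1, a factor of cardiac mesoderm, was the other member of the list to fall besides FGF8 (log2 change -0.52, adjusted p = 0.0437); its call ended without DMSO replicate 2 (0.296) or PFOS replicate 1 (0.292), when 4 and 5 of the list were called.

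In the endoderm list 5 of 11 members tested fell, against 3.08% of all genes, with a median log2 change of -0.55. FOXA2, a defining factor of endoderm, stood at 1.42 and 2.72 FPKM with DMSO and at 0.15 and 0.34 with PFOS (log2 change -1.27, SE 0.19, adjusted p = 0.00315). HHEX, a homeobox factor of foregut endoderm and of blood and endothelial precursors, stood at 7.45 and 19.2 with DMSO and at 1.09 and 2.12 with PFOS (log2 change -2.35, SE 0.36, adjusted p = 0.00747). The 2 DMSO libraries differed from each other by more than 2-fold for HHEX, and its call ended without PFOS replicate 1 (adjusted p = 0.0803). The epithelial surface proteins CLDN6 and EPCAM and the factor FOXA1 also fell (log2 change -0.71, -0.85 and -0.79); without DMSO replicate 2 the adjusted p values were 0.0588, 0.121 and 0.208 and without PFOS replicate 1 it was 0.0532, 0.144 and 0.213, with 2 and 1 of the list called. AFP, of yolk sac and fetal liver, went the other way without passing the test, at 1.53 and 1.67 with DMSO and 4.93 and 4.83 with PFOS (log2 change 1.18, adjusted p = 0.103). It passed in 1 alternative, with only the 4 libraries in the fit (adjusted p = 0.00897).

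FGF signalling genes moved in both directions, 5 of 24 tested falling and 3 rising, against 3.08% and 3.69% of all genes. Those that fell include FGF8, a ligand of the early heart field, and ETV5, ETV4 and SPRY4, which FGF receptors switch on through ERK. FGF8 stood at 15.0 and 16.8 FPKM with DMSO and at 4.85 and 7.17 with PFOS (log2 change -1.29, SE 0.16, adjusted p = 0.0015). ETV5, an ETS factor, stood at 8.61 and 14.6 with DMSO and at 2.01 and 2.83 with PFOS (log2 change -1.85, SE 0.19, adjusted p = 0.000717). ETV4, its relative, fell from 2.54 ± 0.86 to 0.39 ± 0.04 (log2 change -1.33, adjusted p = 0.00131), and SPRY4, a feedback inhibitor of the pathway, from 16.7 ± 3.86 to 6.08 ± 1.78 (log2 change -1.33, adjusted p = 0.0015). For all 4 genes the highest PFOS library was below the lowest DMSO library, as it was for all 433 genes that fell. The same was so for genes that were not called, such as KDR. SPRY4 lost its call with only the 4 libraries in the fit (adjusted p = 0.0511). FGFR4, a receptor, also fell (log2 change -0.87), and FGF7, a ligand, and PHLDA1 and IER3, early response genes, rose by 0.48, 0.45 and 0.29. The 3 rises and FGFR4 were not called without DMSO replicate 2 (adjusted p = 0.143, 0.103, 0.172 and 0.107) or PFOS replicate 1 (0.219, 0.181, 0.224 and 0.0921), and the rises also ended without DMSO replicate 1 (0.0888, 0.118 and 0.159), PHLDA1 and IER3 besides without PFOS replicate 2 (0.0563 and 0.108).

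Among sarcomere genes the share that fell, 4.0%, was near the 3.08% over all genes. In the sarcomere list 1 of 25 members tested fell, ACTA1, skeletal muscle actin, at 5.08 and 9.88 FPKM with DMSO against 0.33 and 0.77 with PFOS (log2 change -2.41, adjusted p = 0.00379; 0.0536 without PFOS replicate 1). The median log2 change of the 25 genes was -0.63, with members between -2.41 and 0.32, so most were lower without passing the test. ACTA1 shares long stretches of sequence with ACTA2, smooth muscle actin, which stood at 488 and 639 with DMSO and 198 and 335 with PFOS (log2 change -1.11, adjusted p = 0.0235; 0.171 without DMSO replicate 2 and 0.0898 without PFOS replicate 1). TAGLN, the smooth muscle protein transgelin, fell under all alternatives, from 85.2 and 113 to 54.9 and 55.0 (log2 change -0.83, SE 0.11, adjusted p = 0.00194). Of 14 smooth muscle genes tested 35.7% were called, against 6.77% of all genes. Of them 3 fell, ACTA2, TAGLN and the tropomyosin TPM2 (-0.53). The 2 that rose were CALD1, the actin-binding caldesmon (0.45), and PDGFRB, a receptor of mural cells (0.36). TPM2, CALD1 and PDGFRB lost their calls without DMSO replicate 2 (adjusted p = 0.131, 0.216 and 0.162) or PFOS replicate 1 (0.118, 0.223 and 0.242), and PDGFRB also without DMSO replicate 1 (0.0888).

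Of 22 genes of ion channels and calcium handling tested, 6 fell and 1 rose, 31.8% against 6.77% of all genes. Among them the potassium channels KCNA5, KCNH2, KCNJ5 and KCNQ1 fell by 0.55, 0.52, 0.93 and 0.50, and ATP2A2, the calcium pump SERCA2, fell by 0.59. KCNJ3, an atrial potassium channel subunit, rose by 0.58. None of these 6 genes was called without DMSO replicate 2 (adjusted p between 0.0556 for KCNA5 and 0.322 for KCNJ3), and KCNA5 alone of them was called without PFOS replicate 1 (for the rest between 0.096 for KCNH2 and 0.297 for KCNJ3).

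Cardiac transcription factors split evenly, with 3 of 22 rising and 3 falling, 27.3% against 6.77% of all genes. HAND2, of the second heart field, stood at 56.5 and 54.1 FPKM with DMSO and at 74.2 and 72.5 with PFOS (log2 change 0.40, SE 0.06, adjusted p = 0.00416). Its replicates lay closer to each other than the groups did. TBX5, of the first heart field, and NR2F2, of the atria, rose by 0.33 and 0.70, and MEF2C, of heart muscle, TBX3, of the conduction system, and MESP1 fell by 0.80, 0.91 and 0.52. None of the 6 passed without DMSO replicate 2 or without PFOS replicate 1: for HAND2 the adjusted p was then 0.0623 and 0.0505, for TBX5 0.118 and 0.0865, for NR2F2 0.216 and 0.219, for MEF2C 0.166 and 0.179, for TBX3 0.128 and 0.183, and for MESP1 0.296 and 0.292. The call on TBX5 also ended without PFOS replicate 2 (0.0562). In the load response list 4 of 13 fell, 30.8% against 3.08% of all genes. Among them were ACTA1, NPPB, brain natriuretic peptide (log2 change -2.30), and CTGF, a matricellular YAP target (-0.80). The calls on NPPB and CTGF ended without DMSO replicate 2.

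Epicardial genes rose, 4 of 18 tested against 3.69% of all genes, with a median log2 change of 0.30. SULF1, an enzyme that trims heparan sulfate, stood at 1.46 and 0.97 FPKM with DMSO and at 4.84 and 3.55 with PFOS, and rose under all alternatives (log2 change 1.23, SE 0.15, adjusted p = 0.00134). The epicardial factors TCF21, WT1 and TBX18 rose by 0.95, 0.73 and 1.16, from 9.53 ± 1.0, 37.0 ± 7.74 and 32.3 ± 13.2 FPKM to 19.5 ± 3.46, 61.9 ± 10.3 and 71.4 ± 17.4. Without DMSO replicate 2 the adjusted p values were 0.0647, 0.194 and 0.0883, and without PFOS replicate 1 it was 0.0565, 0.204 and 0.203, so that SULF1 was the 1 member then called. UPK3B, of mesothelium, stood at 17.5 and 14.6 against 40.2 and 25.3 (log2 change 0.95, adjusted p = 0.0696).

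The chemokine CXCL12, its scavenger receptor ACKR3 and the related ligand CXCL14 rose, 3 of 7 members tested against 3.69% of all genes. Each held under all alternatives. ACKR3 stood at 7.48 and 5.91 FPKM with DMSO and at 26.4 and 18.1 with PFOS (log2 change 1.58, SE 0.15, adjusted p = 0.000717). CXCL14 stood at 12.4 and 9.34 with DMSO and at 32.9 and 25.8 with PFOS (log2 change 1.36, SE 0.13, adjusted p = 0.000717). CXCL12 stood at 31.8 and 32.8 with DMSO and at 52.9 and 58 with PFOS (log2 change 0.76, SE 0.10, adjusted p = 0.00194). All 3 were separated by more than the spread of their replicates, and CXCL12 was the one for which PFOS replicate 2 and not replicate 1 was the higher.

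Matrix and adhesion genes moved in both directions. Of 21 integrins, laminins and related genes tested, 3 rose and 4 fell, 33.3% against 6.77% of all genes. ITGA11 and ITGA1, the collagen-binding integrin subunits, rose under all alternatives, from 2.94 and 2.14 FPKM to 10.6 and 8.52 (log2 change 1.58, SE 0.19, adjusted p = 0.0014) and from 3.41 and 2.54 to 8.02 and 6.21 (log2 change 1.03, SE 0.13, adjusted p = 0.0014). FN1, fibronectin, fell under all alternatives, from 799 and 969 to 513 and 544 (log2 change -0.73, SE 0.09, adjusted p = 0.00151). ITGA8, a subunit of a fibronectin receptor, rose by 0.42, and the subunits ITGA6, of laminin receptors, ITGA9 and ITGAV fell by 0.65, 0.58 and 0.36. ITGA8, ITGA6, ITGA9 and ITGAV lost their calls without DMSO replicate 2 (adjusted p = 0.318, 0.112, 0.144 and 0.232) or PFOS replicate 1 (0.292, 0.109, 0.104 and 0.224), and ITGA9 was lost without DMSO replicate 1 (0.0571) or PFOS replicate 2 (0.071) as well.

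Of 23 collagen genes tested, 5 rose and 3 fell, and of 22 proteoglycan and matricellular genes 6 rose and 3 fell. These were 34.8% and 40.9% of the lists, against 6.77% of all genes. The largest rises were in DCN and LUM, small proteoglycans of connective tissue: DCN stood at 0.55 and 0.57 FPKM with DMSO and 4.22 and 2.58 with PFOS (log2 change 1.47, SE 0.35, adjusted p = 0.0423), and LUM at 34.6 and 29 against 103 and 75.1 (log2 change 1.44, SE 0.32, adjusted p = 0.041). HAPLN1, which links hyaluronan to proteoglycans in the cardiac jelly, showed the largest fall of the 2 lists, from 75.1 and 96.8 to 26.9 and 35.3 (log2 change -1.44, SE 0.22, adjusted p = 0.00608). COL8A1, COL6A3 and COL21A1 rose by 0.91, 0.62 and 0.64, and COL2A1, the cartilage collagen, fell by 0.66. None of these 7 was called without DMSO replicate 2, where the adjusted p lay between 0.0647 for HAPLN1 and 0.224 for LUM, or without PFOS replicate 1, between 0.0664 for HAPLN1 and 0.256 for DCN. DCN and LUM also lost their calls with equal FPKM totals (0.0566 and 0.0592), without PFOS replicate 2 (0.052 and 0.0611) or without DMSO replicate 1 (0.131 and 0.0908). THBS1, thrombospondin 1, which fell by 0.91, was the 1 member of both lists called without PFOS replicate 1, and its adjusted p was 0.0602 without DMSO replicate 2.

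Several secreted or matrix-modifying proteins fell or rose under all alternatives. TFPI2, an inhibitor of serine proteases that lies in the matrix, stood at 8.63 and 9.51 FPKM with DMSO and at 0.81 and 1.6 with PFOS (log2 change -2.21, SE 0.20, adjusted p = 0.000717). P3H2, a collagen prolyl hydroxylase, fell from 36.5 ± 4.17 to 14.9 ± 3.02 (log2 change -1.24, adjusted p = 0.000717), PRSS23, a serine protease, from 20.4 ± 3.68 to 7.21 ± 2.07 (-1.39, adjusted p = 0.0014) and TGM2, the crosslinking enzyme transglutaminase 2, from 20.5 ± 5.77 to 7.94 ± 1.35 (-1.25, adjusted p = 0.00315). Among genes that rose, ISLR, a fibroblast marker also called Meflin, went from 8.79 and 7.22 to 26.2 and 19.7 (log2 change 1.40, SE 0.12, adjusted p = 0.000433). IGFBP3, a carrier of IGF, rose from 36.7 ± 5.92 to 78.5 ± 9.28 (1.08, adjusted p = 0.00315), PAPPA, a protease that frees IGF from its carriers, from 1.08 ± 0.01 to 3.29 ± 0.90 (1.03, adjusted p = 0.00379), and PDGFD, a PDGF ligand, by 0.74 (adjusted p = 0.00315). LTBP1, which keeps TGF-beta latent in the matrix, fell from 67.4 and 79.7 to 39.6 and 47.9 (-0.74, adjusted p = 0.00199), also under all alternatives. IGFBP7, another IGF carrier, fell by 1.67, from 33.2 and 44.7 to 7.72 and 16.8, but the call ended with only the 4 libraries in the fit (adjusted p = 0.167) or without DMSO replicate 2 (0.144).

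Genes of WNT signalling were split into targets, ligands with their receptors, and antagonists. Of 16 target genes tested 1 fell, TBX3, with a median log2 change of -0.10 for the list. Of 22 ligands and receptors 5 fell: the non-canonical ligands WNT5A, WNT5B and WNT11 (log2 change -0.50, -0.53 and -0.57), the receptor FZD5 (-0.71) and the WNT5A receptor ROR1 (-0.65). Of 10 antagonists 3 rose, SFRP1, SFRP5 and DKK3 (0.54, 0.67 and 0.42), and SFRP1 stood at 125 and 109 FPKM with DMSO and 169 and 171 with PFOS. FRZB, another secreted WNT binder, had the largest log2 change of this list, 2.17, with an adjusted p of 0.0507. It passed in 5 alternatives, with the lowest adjusted p at 0.00544 with only the 4 libraries in the fit. None of the 9 calls was left without DMSO replicate 2 (adjusted p between 0.0877 for SFRP1 and 0.261 for ROR1) or without PFOS replicate 1 (between 0.0515 for SFRP1 and 0.257 for ROR1), and that on DKK3 ended also without DMSO replicate 1 (0.0958) or PFOS replicate 2 (0.055).

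Of 22 genes of the BMP pathway tested, 4 fell and 1 rose, 22.7% against 6.77% of all genes. BMPER, a secreted regulator of BMP, stood at 68.7 and 80.1 FPKM with DMSO and at 39.6 and 48.7 with PFOS (log2 change -0.74, SE 0.11, adjusted p = 0.00314), and BMP1, a protease that matures collagen and frees BMP, stood at 10.5 and 10.2 against 18.7 and 14.9 (0.64, SE 0.09, adjusted p = 0.00236). Both calls held under all alternatives. The ligands BMP2 and BMP4 and the inhibitor SMAD6 fell by 0.74, 0.40 and 0.45, calls that ended without DMSO replicate 2 (adjusted p = 0.192, 0.139 and 0.26) or PFOS replicate 1 (0.199, 0.0652 and 0.213). The calls on BMP4 and SMAD6 ended without either other library too (0.0617 and 0.0566 without DMSO replicate 1, 0.0872 and 0.0772 without PFOS replicate 2).

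Genes of the middle of the HOXB cluster rose, 4 of the 10 HOX genes tested, where 3.69% of all genes rose. HOXB5, HOXB6, HOXB7 and HOXB8, neighbours on the minus strand of chromosome 17 between 48591257 and 48633572, set position along the body axis. HOXB8 stood at 1.49 and 0.94 FPKM with DMSO and at 5.99 and 4.46 with PFOS, 4.3-fold higher (log2 change 1.49, SE 0.22, adjusted p = 0.00315). HOXB7 stood at 2.67 and 2.01 against 6.88 and 5.96, 2.74-fold higher (log2 change 1.16, SE 0.15, adjusted p = 0.00185). Both held under all alternatives, although the annotated spans of HOXB7 and HOXB8 overlap and reads could be shared. HOXB5 stood at 6.3 and 5.77 against 10.8 and 9.65 and HOXB6 at 5 and 5.2 against 10.8 and 9.75 (log2 change 0.67 and 0.89). Without DMSO replicate 2 the adjusted p values were 0.0986 and 0.177 and without PFOS replicate 1 it was 0.098 and 0.223, and HOXB6 was lost without DMSO replicate 1 (0.115) or PFOS replicate 2 (0.0749) as well.

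Retinoic acid sets HOX expression in the embryo, and 3 of 12 retinoic acid genes tested fell and 1 rose. These were 33.3% of the list, against 6.77% of all genes. CRABP1, a carrier of retinoic acid inside cells, stood at 7.81 and 8.18 FPKM with DMSO and at 3.86 and 3.37 with PFOS, and fell under all alternatives (log2 change -0.96, SE 0.12, adjusted p = 0.0014). CRABP2, the carrier that hands retinoic acid to its receptors, stood at 145 and 172 against 42.8 and 75.3 (log2 change -1.46, SE 0.23, adjusted p = 0.00876; 0.0883 without DMSO replicate 2). RARB, a receptor and direct target, fell by 0.84 (adjusted p = 0.272 without DMSO replicate 2 and also 0.272 without PFOS replicate 1). STRA6, which takes up retinol, rose by 0.50, a call that ended without DMSO replicate 1, DMSO replicate 2 or PFOS replicate 1 (0.116, 0.235 and 0.33).

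In the neural list 4 of 12 members tested rose, DCX, TUBB3, GAP43 and NCAM1, against 3.69% of all genes. The median log2 change of the list was 0.10, against 0.03 over all genes, and STMN2 was lower without passing the test (-0.36). The defining factors PAX6 and SOX1 stayed under 1 FPKM. DCX, a microtubule protein of migrating neurons, stood at 1.04 and 0.92 FPKM with DMSO and at 3.24 and 2.32 with PFOS (log2 change 0.92, SE 0.13, adjusted p = 0.00213), and was the 1 of the 4 to hold under all alternatives. Outside that list, 3 other genes known from neurons rose, named because they were among the 20 largest rises. The peptide genes NPY and SST, given below, were among the 20 largest falls. CRMP1, a cytoskeletal protein of growth cones, stood at 10.8 and 10.2 against 26.4 and 21.7 (log2 change 1.12, SE 0.09, adjusted p = 0.000245). SYT10, a calcium sensor of secretion, stood at 5.07 and 3.65 against 15.1 and 12.6 (log2 change 1.48, SE 0.19, adjusted p = 0.00199). GRIK1, a glutamate receptor subunit, stood at 3.23 and 2.55 against 9.89 and 7.25 (log2 change 1.29, SE 0.17, adjusted p = 0.00185). For CRMP1, SYT10 and GRIK1 both PFOS libraries were over 2 times either DMSO library, and all alternatives called them.

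TUBB3, a neuronal tubulin, and GAP43 and NCAM1, of axons and cell contact, rose by 0.98, 0.97 and 0.44, and the call on TUBB3 ended with only the 4 libraries in the fit (adjusted p = 0.069). The calls on GAP43 and NCAM1 ended without DMSO replicate 2 (adjusted p = 0.113 and 0.177) or PFOS replicate 1 (0.114 and 0.107), and that on NCAM1 without PFOS replicate 2 (0.055). Among peptide hormone genes SST, somatostatin, stood at 11.9 and 8.13 FPKM with DMSO and at 3.39 and 3.91 with PFOS and fell under all alternatives (log2 change -1.22, SE 0.15, adjusted p = 0.0014). NPY, neuropeptide Y, fell by 1.44 and PENK, proenkephalin, rose by 1.12, but the 2 DMSO libraries for NPY stood at 34.2 and 69.7. NPY and PENK lost their calls without DMSO replicate 2 (0.118 and 0.167) or PFOS replicate 1 (0.224 and 0.197), and NPY also without PFOS replicate 2 (0.108).

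Among metabolic and stress lists the share called lay on both sides of the 6.77% over all genes. Lists above it include PPAR targets and fatty acid oxidation (9.09%) and NRF2 targets (11.1%), and other lists had no member called. Limma called 0 of 24 genes of cholesterol synthesis and uptake, 0 of 23 of oxidative phosphorylation, 0 of 14 of the unfolded protein response and 0 of 7 of the AHR and xenobiotic response, with 12, 4, 2 and 2 at an unadjusted p under 0.05, where the share over all genes was 23.1%. For the 24 cholesterol genes, then, the count of 12 was above that share, and their median log2 change was 0.15. Without DMSO replicate 1, 5 cholesterol genes rose. Of 22 PPAR targets and genes of fatty acid oxidation 2 fell, ACSL1, which activates fatty acids (log2 change -0.81), and ANGPTL4, an inhibitor of lipoprotein lipase (-0.62). Of 18 NRF2 targets GCLC, of glutathione synthesis, and SRXN1, which repairs peroxiredoxins, fell by 0.47 and 0.44. Of the other lists of this kind FASN, fatty acid synthase, VLDLR, a lipoprotein receptor, and HSPB1, a small heat shock protein, fell by 0.45, 0.47 and 0.43, and MT3, a metallothionein, GATM, of creatine synthesis, and CA12, a carbonic anhydrase, rose by 0.86, 0.94 and 0.69. All 10 calls ended without 1 library. Without DMSO replicate 2 the adjusted p of all but ACSL1 lay between 0.0559 for GCLC and 0.332 for SRXN1, and without PFOS replicate 1 that of all but MT3 lay between 0.0506 for ACSL1 and 0.287 for HSPB1. Those of ANGPTL4, FASN, GCLC and MT3 ended also without DMSO replicate 1 (0.0965, 0.0958, 0.0881 and 0.0683), and those of ANGPTL4, FASN, SRXN1 and MT3 without PFOS replicate 2 (0.0527, 0.163, 0.0626 and 0.0641).

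NMRK2, an enzyme of NAD synthesis in muscle, fell under all alternatives, from 8.22 and 9.18 FPKM to 1.56 and 2.83 (log2 change -1.63, SE 0.20, adjusted p = 0.0014). JUN, a subunit of AP-1, rose under all alternatives, from 13.6 and 10.4 to 31.1 and 25.3 (log2 change 1.17, SE 0.14, adjusted p = 0.0014). The groups were well apart for both. Of 13 immediate early genes JUN, KLF6 (0.51) and IER3 (0.29) rose, and the call on KLF6 ended without PFOS replicate 1 (adjusted p = 0.0993). Of 27 cell cycle genes 3 rose, none of them a gene of replication or mitosis: CCND2, cyclin D2, and the inhibitors CDKN1A and CDKN1C (log2 change 0.47, 0.51 and 0.33). Of 17 p53 targets CDKN1A and TP53I3 rose (0.51 and 0.60). The rises were 23.1% of the immediate early list, 11.1% of the cell cycle list and 11.8% of the p53 list, where 3.69% of all genes rose. Without PFOS replicate 1 the adjusted p was 0.104 for CCND2, 0.0896 for CDKN1A, 0.187 for CDKN1C and 0.0666 for TP53I3, and without DMSO replicate 2 it was 0.111, 0.121 and 0.216 for the first 3. CDKN1A lost its call without either other library (0.158 and 0.16) and CDKN1C without PFOS replicate 2 (0.0521).

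The day 12 libraries, which share none with day 8, repeat the comparison 4 days later. PFOS against DMSO changed 1730 genes there, 12.3% of those tested: 939 rose (6.67%) and 791 fell (5.62%). With equal FPKM totals 683 rose and 1003 fell, so that 40.5% of the calls were rises against 54.3%. Without day 12 DMSO replicate 1, DMSO replicate 2 or PFOS replicate 1 the count was 657, 583 or 810. Of the 520 genes that rose at day 8, 235 rose at day 12, 45.2% of the day 8 list and 25.0% of the day 12 list, and of the 433 that fell 170 fell again, 39.3% and 21.5%. The opposite change at day 12 was called for 7 and 6 genes. Across the 14080 genes the 2 sets of log2 changes correlated with r = 0.487, a description over genes, which are not independent replicates. A difference between the days was called for 198 genes, 1.41% of those tested, among them 42 that rose and 28 that fell at day 8. The day 8 libraries enter both this difference and the day 8 call. Genes called at day 8 are therefore favoured for a difference of the opposite sign. The difference was above 0 for 43.4% of the 198 and for 31.2% with equal FPKM totals. Leaving out 1 of the 8 libraries gave between 59 (without day 12 DMSO replicate 2) and 339 (without day 12 PFOS replicate 2).

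Some day 8 changes differed at day 12. CD34 stood at 2.19 and 1.74 FPKM with DMSO and at 2.46 and 2.08 with PFOS at day 12 (difference of the log2 changes, day 12 minus day 8, 2.26, adjusted p = 0.00614), and GDF3 at 0.66 and 0.51 against 0.4 and 0.75 (difference 1.85, adjusted p = 0.0082). CDKN1A changed its direction: it fell at day 12, from 24.3 and 22.8 to 9.15 and 8.97 (log2 change -1.28, adjusted p = 0.000154; difference -1.80, adjusted p = 0.000863). These 3 differences, like those of TXNIP and ARRDC4 (-2.27 and -2.23, adjusted p = 0.000147 for each), were called without each of the 8 libraries in turn.

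CDH5 stood at 3.1 and 2.82 FPKM with DMSO and 2.02 and 1.96 with PFOS at day 12 (difference 1.46, adjusted p = 0.0177), and ESAM at 4.44 and 4.35 against 4.01 and 3.29 (difference 1.44, adjusted p = 0.0156). ITGA11 stood at 2.38 and 2.03 against 1.6 and 1.53 (difference -1.90, adjusted p = 0.0082). The PFOS libraries of day 12 thus lay well above those of day 8 for the pair of junction genes and well below them for ITGA11. The differences for CDH5 and ESAM were lost without day 8 DMSO replicate 2, either DMSO library of day 12 or day 12 PFOS replicate 1, and that for CDH5 also without day 8 PFOS replicate 1, with the highest adjusted p at 0.0905 without day 12 DMSO replicate 2 and 0.0788 without day 12 PFOS replicate 1, and that for ITGA11 was lost in 1, without day 12 PFOS replicate 1 (0.0545).

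For WT1 and SFRP5 the change was larger at day 12. WT1 stood at 4.06 and 4.65 FPKM with DMSO and 19.4 and 20.8 with PFOS (log2 change 1.98; difference 1.25, adjusted p = 0.0293, lost without day 8 DMSO replicate 1, day 8 PFOS replicate 2 or any 1 of the day 12 libraries, up to 0.121), and SFRP5 at 23.4 and 25.7 against 119 and 114 (log2 change 2.20; difference 1.53, adjusted p = 0.00269, and up to 0.0287 without 1 library). Of the epicardial list 13 of 18 rose at day 12, against 4 at day 8; the difference between these counts was not tested. ISLR, ACKR3, SULF1, SYT10, HOXB7, P3H2, FN1, SLCO2A1 and MIXL1 changed at both days in the same direction, with log2 changes at day 12 of 1.90, 1.33, 1.31, 1.43, 1.22, -1.07, -0.53, -1.36 and -0.78. SLCO2A1, a prostaglandin transporter, had fallen at day 8 from 2.48 and 4.11 to 0.3 and 0.6 (log2 change -1.55, SE 0.17, adjusted p = 0.000929).

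F-53B, a chlorinated ether relative of PFOS, was in the medium at the same dose and for the same time, and 3991 genes (28.3%) differed between the compounds at day 8, 47.0% of them higher with F-53B (59.2% with equal FPKM totals). The count was 2019, 1482 and 1191 without F-53B replicate 1, F-53B replicate 2 and PFOS replicate 2. This comparison shares the PFOS libraries with the one against DMSO, so levels are given side by side. The 2 compounds form 1 pair, compared here at 1 dose and 1 time. For some genes the F-53B libraries lay beyond PFOS as seen from DMSO: LMO2 was at 0.32 and 0.36 FPKM with F-53B (log2 difference, F-53B minus PFOS, -1.47, 95% interval -1.84 to -1.10, adjusted p = 0.000496), FGF8 at 1.13 and 0.96 (-1.76, -2.12 to -1.40, adjusted p = 0.000227), SST at 0.53 and 0.71 (-1.52, -1.85 to -1.19, adjusted p = 0.000235) and ACKR3 at 46.8 and 45.0 (1.04, 0.71 to 1.36, adjusted p = 0.00124). The cardiomyocyte genes, which had not passed against DMSO, were far lower with F-53B than with PFOS: MYH6 stood at 11.5 and 5.76 against 355 and 563 (log2 difference -5.61, 95% interval -6.88 to -4.33, adjusted p = 0.00104) and NKX2-5 at 0.88 and 1.06 against 26.4 and 47.3 (-4.21, -5.50 to -2.91, adjusted p = 0.00249), and TNNT2 and ACTN2 differed by -2.62 and -2.53. These 4 differences were called without each of the 4 libraries in turn. ACTA2, CRABP2 and MEF2C were also below PFOS (-3.04, -2.67 and -2.25). UPK3B, at 101 and 124 FPKM with F-53B, was above it (1.78, called without each library), as were DCN (1.79) and LUM (1.60), whose calls ended without PFOS replicate 2 (adjusted p = 0.0685 and 0.0887) or F-53B replicate 2.

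Other genes did not follow that order. CXCL12 was at 27.8 and 24.6 FPKM with F-53B, below PFOS and below DMSO (log2 difference from PFOS -1.05, 95% interval -1.28 to -0.83, adjusted p = 0.000232). GRIK1 was at 4.19 and 3.86 (-0.92, -1.28 to -0.55, adjusted p = 0.00323), CDKN1A at 5.29 and 4.24 (-1.20, -1.49 to -0.92, adjusted p = 0.000374) and HAND2 at 49.7 and 50.7 (-0.54, -0.68 to -0.40, adjusted p = 0.000526). THBS1, lower with PFOS than with DMSO, was at 5.09 and 4.63 with F-53B, near its DMSO level of 4.51 and 5.67 (0.86, 0.55 to 1.17, adjusted p = 0.00195). TXNIP was at 110 and 103, lower than with PFOS (-0.49, -0.75 to -0.23, adjusted p = 0.0116; 0.0873 without F-53B replicate 2, and also lost without PFOS replicate 1), and ARRDC4 at 15.7 and 16.5, where the difference did not pass the test (-0.28, -0.55 to -0.02, adjusted p = 0.0969). For CDH5 and ESAM the difference did not pass either (-0.20, -0.59 to 0.19, and -0.26, -0.63 to 0.11).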

How the data were processed

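The authors deposited 1 table per library with FPKM per gene, per the file headers. The submitters' processing notes name HISAT, Bowtie2, RSEM and GRCh38.p11 but neither their order nor tool versions, and scaling between libraries is not given in the sources used here. FPKM totals at day 8 ran from 406768 to 418666 in the 4 libraries; depth is unknown, so no counting interval is given. From each library, 8 lines of annotation text were left out.

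Log2(FPKM + 1) was fitted for all 12 libraries as 6 group means (6 residual degrees of freedom) with limma 3.58.1 in R 4.3.3, with trend and robust moderation, two-sided, with Benjamini-Hochberg adjustment over 14080 genes in each of 4 comparisons. The fit was tested on simulated data. Tables were made with pandas, figures with matplotlib. Members and the 48 gene lists were chosen with earlier results of these data known, so the lists are described by counts and not tested. Named genes are part of those given by a rule: the 20 largest rises and falls with a mean of at least 5 FPKM and groups apart, up to 4 members per list, marker sets and the TXNIP list. Locations are from GENCODE 29 on GRCh38, promoters from RefSeq (11308 of 14080 genes matched). Replicate numbers were not treated as pairs. Alternatives were another pseudocount, filter, scaling, moderation, a replicate block, only the libraries compared, and leaving out each library. Results on 2 genes are not reported here.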

Additional observations from a re-analysis of the deposited data

Results flagged for a closer look

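The effect of PFOS differed between day 8 and day 12 for 22 genes of the text by limma's test of the difference of the log2 changes (adjusted p under 0.05), among 198 genes in all. All differences are day 12 minus day 8. Since the day 8 libraries enter both the difference and the day 8 call, genes called at day 8 are favoured for a difference of the opposite sign. Differences below 0 were those of TXNIP (-2.27), ARRDC4 (-2.23), ITGA11 (-1.90), CDKN1A (-1.80), TUBB3 (-1.49), GRIK1 (-1.40) and CCND2 (-0.67), which had risen at day 8. Differences above 0 were those of NPY (2.58), CD34 (2.26), GDF3 (1.85), TFPI2 (1.63), CDH5 (1.46), ESAM (1.44), ANGPTL4 (1.28), SST (1.16), TAL1 (1.09), SOX7 (0.93) and BMP4 (0.82), which had fallen at day 8, of SFRP5 (1.53), WT1 (1.25) and PDGFRB (0.57), which had risen at day 8 and rose by more at day 12, and of COL3A1 (1.03), which did not pass the test at day 8 (log2 change 0.26, adjusted p = 0.189). The differences for TXNIP, ARRDC4, CDKN1A, SFRP5, CD34 and GDF3 were called without each of the 8 libraries in turn, with a highest adjusted p of 0.0022, 0.00208, 0.0101, 0.0287, 0.0431 and 0.0495. The other 16 were lost without at least 1 library, and the adjusted p of NPY reached 0.179 without day 12 DMSO replicate 2.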

How the results depend on the processing

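With 2 libraries per group the number of calls moved most with the libraries in the fit. PFOS against DMSO at day 8 gave between 170 and 956 calls without 1 library and 437 with only its 4 libraries (2 residual degrees of freedom), against 953. Where 1 library was left out, the lone sample of its group is assumed to vary like the other groups. Leaving out 1 library gave 583 to 2024 calls at day 12, 59 to 339 for the difference between the days and 1191 to 3717 for F-53B against PFOS. The cause was not tested.

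Other settings kept the day 8 count between 752 and 943. With equal FPKM totals 50.3% of the calls were rises (463 of 921), at day 12 683 rose and 1003 fell, and for F-53B against PFOS 2508 were higher and 1730 lower; the difference between the days then had 73 above and 161 below 0. A fit with the replicate number as a replicate block, where the labels share a number and nothing else, gave 819, 1578, 156 and 3683 calls in the 4 comparisons; the deviations of same-numbered libraries correlated with r = 0.139 between the day 8 groups and 0.011 between the day 12 groups. Of 130 genes of the text past the test at day 8, 82 lost the call without 1 library, and no called change reversed. With only the 4 libraries in the fit the calls on CFC1, CFC1B, HHEX, ACTA2, TBX18, CRABP2 and NPPB were among those that ended. Their adjusted p was 0.16, 0.217, 0.138, 0.18, 0.217, 0.113 and 0.0658. AFP, FRZB, UPK3B and ARRDC1, which had not passed, were called in at least 1 alternative. Only relative levels are given and depth is unknown.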
